A study of Mus musculus with 30 samples.

Results

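The effect of adding Ex527 to HL-1 cells that already received FK866 and nicotinamide riboside (NR) was read from 6 of the 30 samples of the series, 3 libraries of FK866 + NR + Ex527 and 3 of FK866 + NR. The 6 samples were chosen by their labels alone, and no measured value entered the choice of samples. HL-1 is a cardiac muscle line that came from a tumor of the mouse atrium (strain C57BL/6J, adult, female), so every culture stands for 1 line and the replicates were separately cultured wells. FK866, at 5 nM, inhibits NAMPT, the rate-limiting enzyme of the NAD salvage pathway, NR, at 100 µM, is an NAD precursor that enters the pathway downstream of that block, and Ex527, at 20 µM, inhibits the NAD-dependent deacetylase SIRT1. Both groups compared received FK866 and NR, and only 1 of them received Ex527. The other HL-1 groups were 3 untreated libraries and 3 libraries of FK866 alone, which enter here through the shared estimate of spread and through 1 comparison that uses neither of the Ex527 or NR groups. The time between addition of the compounds and lysis is not given in the sources used here.

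Sirtuins remove acetyl groups from histones, transcription factors and metabolic enzymes and consume NAD with each reaction, so their activity falls when NAD is short. SIRT1 substrates include p53, FOXO factors, NF-kB, PGC-1alpha and clock proteins, and inhibition of the enzyme acts on activity and need not alter its mRNA. ATF4 is the transcription factor of the integrated stress response, the program in which phosphorylation of the translation initiation factor eIF2alpha slows translation and genes for amino acid synthesis and import are turned on. HIF-1 drives the transcription of glycolytic and hypoxia genes and is held in check by the prolyl hydroxylases that Egln1 and Egln3 encode.

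The 6 libraries held between 21337922 and 35000109 counts, and those with Ex527 (27480063 to 35000109) were mostly deeper than those without (21337922 to 28462232). The label of cardiomyocyte did not match the markers of these cultures. Of 10 atrial cardiomyocyte markers, 2 (Myl4 and Myl7) passed the filter on low counts, Tbx5, a transcription factor of the atrium, was listed at 0 FPKM (fragments scaled for gene length and library depth, used here for levels between genes) in all 12 HL-1 libraries, and the 10 together summed to between 0.389 and 1.74 FPKM. Gata4, a transcription factor of heart and other organs, had a mean of 25.2 FPKM with FK866 + NR and 23.6 with Ex527, and the fibroblast markers summed to 423 to 428 FPKM with FK866 + NR and to 384 to 395 FPKM with Ex527. Of these 10 fibroblast markers 4 averaged under 1 FPKM over the 12 HL-1 libraries, 1 of them at 0 throughout. The sum therefore rests on the other members. The cultures are therefore called HL-1 cells below, with no claim on their type. FK866 + NR replicate 1 stood apart: 22167 genes had at least 1 count in it against 19488 to 21133 in the other 11 HL-1 libraries, and 10 neural and glial markers, chosen after this was seen, summed to 31.2 FPKM in it and to between 0.216 and 0.431 FPKM in the others. In the same library 8 blood and myeloid markers summed to 19.2 FPKM, against 0 to 0.364 FPKM elsewhere. In all, 173 genes over 0.5 FPKM, 151 of them protein-coding, were more than 8 times higher in this library than in any other HL-1 library, and together they took 0.104% of its counts. Their part in the results was not tested directly, so the results that were lost without this library are given beside their values.

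**Figure D1:**
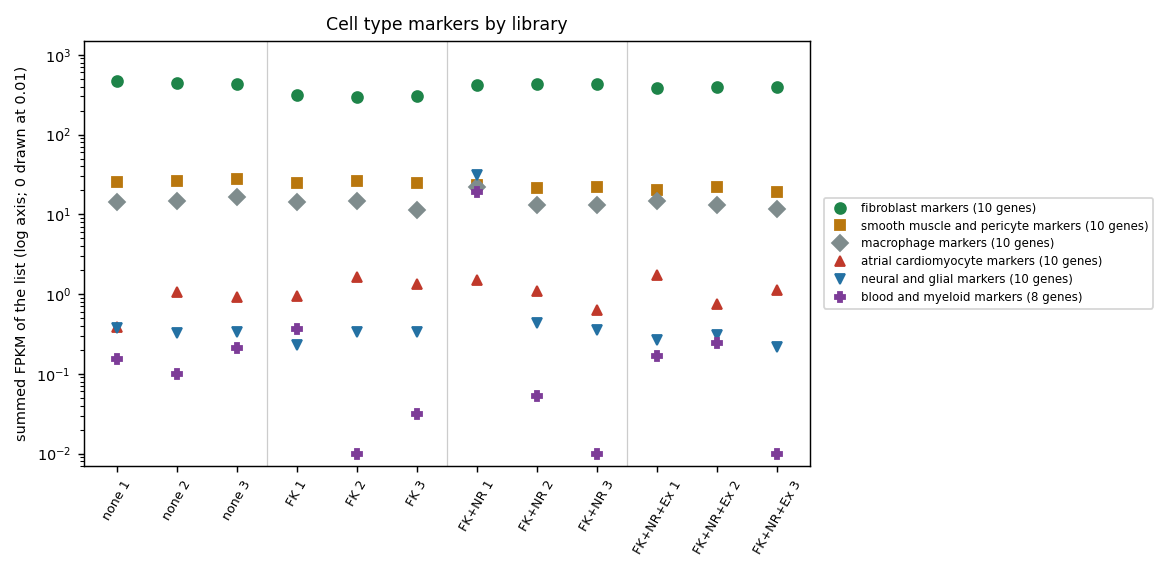
Summed FPKM (log axis) of 6 marker lists in each of the 12 HL-1 libraries, grouped as untreated, FK866, FK866 + NR and FK866 + NR + Ex527. Neural, glial, blood and myeloid markers stand out in FK866 + NR replicate 1 alone (31.2 and 19.2 FPKM), while the atrial markers stay under 1.75 FPKM in every library.

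With Ex527, 17 of 28 listed ATF4 targets rose (adjusted p under 0.01), and 11 to 14 did with any 1 of the 6 libraries left out. Some hypoxia genes, Bnip3 and Pdk1 among them, fell. Of 14760 genes tested, 88 were called, that is, passed an adjusted p under 0.01 together with a fold change over 1.5 (0.596% of the genes tested), of which 31 were higher (0.21%) and 57 lower (0.386%) with Ex527. In all 88 the 3 libraries of 1 group lay above the 3 of the other, as they did in 4918 of the 14760 genes tested (33.3%), so that this separation alone is common. A further 238 genes passed the same adjusted p with a fold change of 1.5 or less, which brings the genes that rose to 158 (1.07%) and those that fell to 168 (1.14%). Below, rose and fell are used for genes with an adjusted p under 0.01, and called for those that were also past the fold. At an unadjusted p under 0.05, 3430 of the 14760 genes tested passed (edgeR, both directions together). Counts of list members at that level, given below, are to be read beside this share. The share of all genes that DESeq2 passed at an adjusted p under 0.01 with no minimum fold is not given here. The median log2 fold change was -0.00 over all genes and 0.73 in size over the 88 called. Leaving out FK866 + NR replicate 1 left 51 calls (18 higher, 33 lower), of which 50 were among the 88, leaving out FK866 + NR + Ex527 replicate 1 left 52 (18 higher, 34 lower), and leaving out FK866 + NR + Ex527 replicate 3 left 57 (16 higher, 41 lower). A test against a fold of 1.5 itself, glmTreat at an adjusted p under 0.05, called 1 gene, Angptl7 (adjusted p = 0.0119), and none higher, with 36 higher and 219 lower at an unadjusted p under 0.05.

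**Figure D2:**
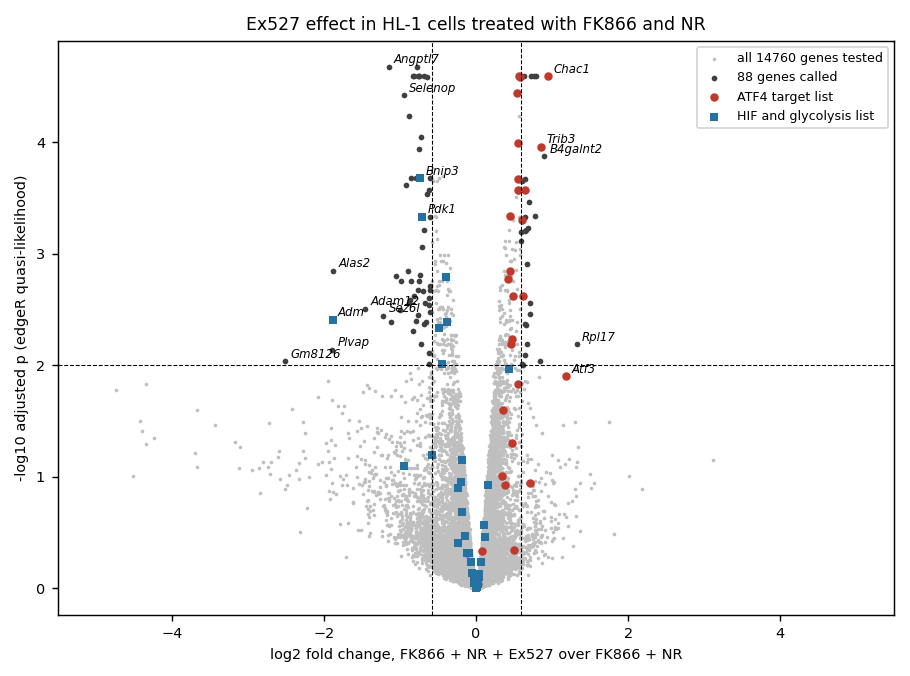
Each point is 1 of 14760 genes, with the log2 fold change of FK866 + NR + Ex527 over FK866 + NR on the x axis and -log10 of the adjusted p on the y axis, and dashed lines at the limits for calls (0.01 and 1.5-fold). The ATF4 targets (red) lie to the right, the called members of the HIF and glycolysis list (blue) to the left, and Angptl7 lies at the top among the falls.

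Chac1, which encodes a glutathione-degrading enzyme induced by ATF4, showed the largest rise within the ATF4 program. Its normalized counts (counts scaled by TMM to the mean library) were 319, 369 and 327 with FK866 + NR and 600, 639 and 728 with Ex527. The lowest Ex527 library lay above the highest library without it, and the rise was 1.93-fold (log2 fold change 0.95 ± 0.09 SE, adjusted p = 2.57e-05). Trib3, a pseudokinase that feeds back on ATF4, was at 627, 798 and 703 without and at 1252, 1290 and 1319 with Ex527. Its means of 709 ± 85.8 and 1287 ± 33.4 (SD, n = 3) differed by 1.81-fold (adjusted p = 0.00011).

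Sesn2, a stress-induced inhibitor of mTORC1 signaling, was called at a 1.56-fold rise, from 916, 862 and 916 to 1259, 1427 and 1520 normalized counts (adjusted p = 0.000267). Psph, the last enzyme of serine synthesis, went from 1804, 1857 and 1866 to 2812, 2589 and 3001 (1.52-fold, adjusted p = 0.0005). Stc2, a secreted glycoprotein, was at 219, 236 and 191 without and at 335, 344 and 310 with Ex527 (1.54-fold, adjusted p = 0.00239). Each of the 3 genes was higher in every Ex527 library than in any FK866 + NR library. Stc2, with FK866 + NR replicate 1 left out, had a log2 fold change of 0.63 and an adjusted p of 0.0121.

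Over the whole list of 28 ATF4 targets, all of which passed the filter, 17 rose and 0 fell, 5 of the 17 being the calls above. Over all genes tested 1.07% rose and 0.21% were called higher. The list was chosen with earlier results of these data known. The median log2 fold change of the list was 0.52, against -0.00 over all genes. The 17 spanned log2 fold changes from 0.42 to 0.95 and the other 11 from -0.12 to 1.18, the upper end being Atf3, a stress-induced factor of few counts named after its value was seen (39.9, 36.5 and 40.6 against 95.3, 62 and 111 normalized counts, adjusted p = 0.0125). Asns, asparagine synthetase, rose 1.46-fold from 5433, 5882 and 6055 to 8510, 8274 and 8550 normalized counts (adjusted p = 3.6e-05). Mthfd2, of mitochondrial one-carbon metabolism, rose 1.49-fold from 2837, 3060 and 3000 to 4450, 4284 and 4539 (adjusted p = 2.59e-05). The mRNA of Atf4 itself rose 1.36-fold, from a mean of 7585 ± 315 to 10330 ± 338 normalized counts (SD, n = 3, adjusted p = 0.00143, and 0.0113 without FK866 + NR replicate 1). Atf4 passed in 2 of the 6 fits with 1 library left out (adjusted p 0.00443 to 0.0121). Pck2, the mitochondrial PEP carboxykinase, was at 2420, 2609 and 2524 without and at 3673, 3741 and 3648 with Ex527 (1.46-fold, adjusted p = 0.000216). The other members that rose were Atf5, Psat1, Phgdh, Shmt2, Slc7a5, Slc3a2, Slc7a1 and Ppp1r15a, which encode a related transcription factor, enzymes of serine and glycine synthesis, amino acid transporters and the eIF2alpha phosphatase subunit GADD34. In the 6 fits with 1 library left out, Psat1, Phgdh, Shmt2 and Slc7a5 passed each time, Slc3a2 in 2 and Slc7a1 in 1. Atf5 and Ppp1r15a passed in none (edgeR, adjusted p 0.0219 to 0.0387 and 0.0168 to 0.0382). Without FK866 + NR replicate 1 the list had a median of 0.52 with 11 members that rose and 0 that fell, and leaving out another of the 6 libraries left 12 to 14 that rose and 0 that fell. For the 0 that fell, edgeR found 0 lower at an unadjusted p under 0.05 and DESeq2 0 lower at an adjusted p under 0.01.

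**Figure D3:**
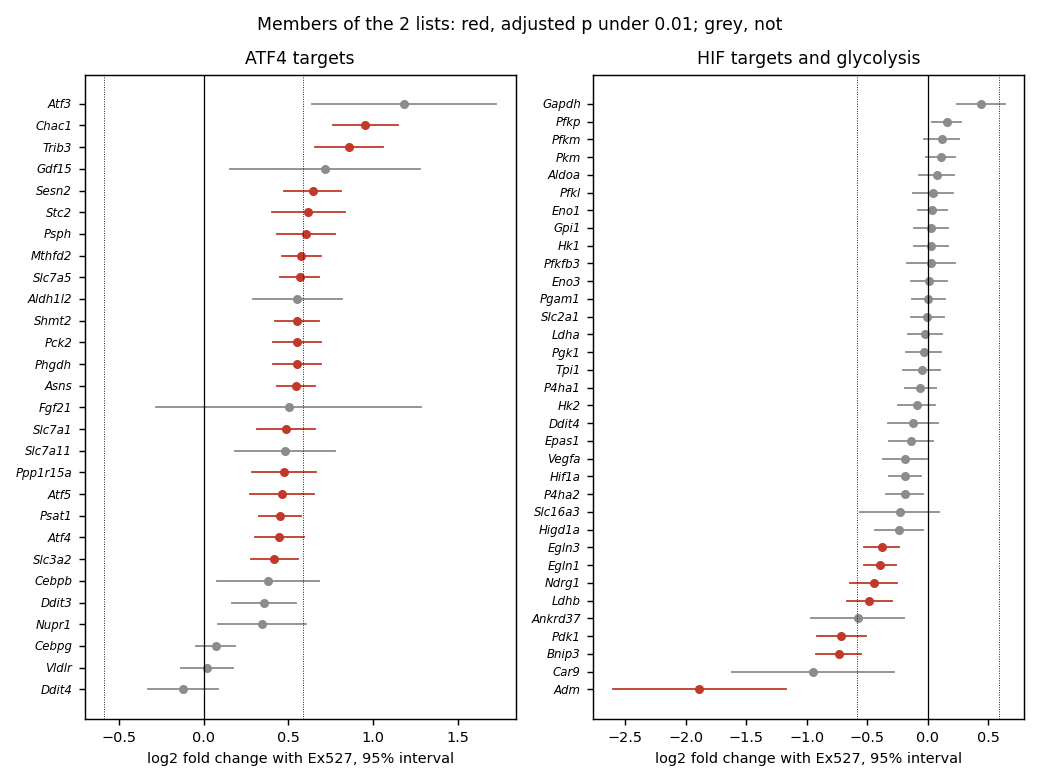
Log2 fold change with Ex527 and its 95% interval for the 28 ATF4 targets (left) and the 34 members tested of the HIF and glycolysis list (right), with dotted lines at 1.5-fold. On the left 17 members are red (adjusted p under 0.01), all above 0, and on the right 7 are red, all below 0.

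The promoters of these genes can be set beside their rise. The stretches shown are the 250 bases before the annotated start in RefSeq on GRCm38.p6, 5′ to 3′ on the strand of the gene, for the 3 genes that rose and held the letters of the composite C/EBP-ATF element, searched as TGATGNAA on both strands and set in capitals. Chac1 lies on the plus strand (chr2:119350992-119351241), Asns on the minus strand (chr6:7693210-7693459) and Pck2 on the plus strand (chr14:55540016-55540265).
Chac1 promoter: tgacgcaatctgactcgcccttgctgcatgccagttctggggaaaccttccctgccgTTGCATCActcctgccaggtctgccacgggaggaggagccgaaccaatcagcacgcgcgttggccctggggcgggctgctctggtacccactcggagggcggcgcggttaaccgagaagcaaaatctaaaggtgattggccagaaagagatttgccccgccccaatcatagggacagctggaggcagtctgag
Asns promoter: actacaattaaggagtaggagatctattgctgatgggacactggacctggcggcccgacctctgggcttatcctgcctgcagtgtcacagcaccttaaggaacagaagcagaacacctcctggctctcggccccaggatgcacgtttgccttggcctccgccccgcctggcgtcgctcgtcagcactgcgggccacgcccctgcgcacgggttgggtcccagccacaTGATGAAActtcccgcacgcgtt
Pck2 promoter: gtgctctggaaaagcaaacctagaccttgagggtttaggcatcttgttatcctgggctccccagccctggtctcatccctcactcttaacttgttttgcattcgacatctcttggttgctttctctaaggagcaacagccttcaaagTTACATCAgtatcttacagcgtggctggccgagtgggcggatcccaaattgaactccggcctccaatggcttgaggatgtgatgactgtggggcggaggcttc
The match begins 193 bases before the start in Chac1 and 103 bases before it in Pck2, on the opposite strand in both, and 23 bases before the start in Asns on the gene's own strand. Of the 28 list members 26 had a promoter in the table, of which 8 held the letters (30.8%), against 951 of all 27025 promoters (3.52%). Of the 16 members with a promoter that rose, 3 held them, and the other 5 matches were in Atf3, Slc7a11, Vldlr, Nupr1 and Fgf21, which did not pass the adjusted p. The list was made of known ATF4 targets, so its share of matches beside that of all promoters does not bear on Ex527. A match describes the letters and no binding was measured.

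Outside the list, among the 15 largest rises, Cth, cystathionine gamma-lyase of cysteine synthesis, rose 1.59-fold (272, 263 and 333 against 451, 459 and 473, adjusted p = 0.00123), and Aldh4a1, of proline breakdown, also 1.59-fold (186, 190 and 192 against 271, 291 and 339.5, adjusted p = 0.00639). Adm2, a secreted peptide of the calcitonin family, was at 162, 195 and 159 without and 281, 286 and 271 with Ex527 (1.63-fold, adjusted p = 0.00345). Leaving out FK866 + NR replicate 1, the log2 fold changes of Cth, Aldh4a1 and Adm2 were 0.62, 0.65 and 0.67, with adjusted p of 0.01005, 0.0311 and 0.0208. Slc1a4, a neutral amino acid transporter (log2 fold change 0.64, adjusted p = 0.000216), and Odc1, ornithine decarboxylase of polyamine synthesis (0.64, adjusted p = 2.57e-05), were also called and were picked from the calls after their values were seen.

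The other genes among the 15 largest rises had varied roles. Itgb7, an integrin subunit, went from 483, 510 and 480 to 871, 846 and 821 normalized counts (1.72-fold, adjusted p = 2.57e-05). B4galnt2, a glycosyltransferase, went from 269.9, 306 and 289 to 498, 506 and 606 (1.86-fold, adjusted p = 0.000134). Fbln5, an elastic fiber protein, was at 89.5, 100.3 and 129.97 without and at 186, 189.7 and 204 with Ex527, with an adjusted p of 0.00907. Of the 3, Fbln5 was not past the threshold without FK866 + NR replicate 1 (log2 fold change 0.74, adjusted p = 0.0491). Npnt, a matrix ligand of integrins, rose 1.71-fold, Tinagl1, a matricellular protein, 1.65-fold and Lgals3, a galactose-binding lectin, 1.6-fold. Car6, a secreted carbonic anhydrase, rose 1.7-fold, Avil, an actin-binding protein, 1.63-fold and Dlk2, a membrane protein related to DLK1, 1.63-fold (adjusted p = 0.00277, and 0.0152 without FK866 + NR replicate 1).

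Rpl17, a ribosomal protein of the large subunit, had the largest rise of the 31 genes called higher, 2.5-fold, but it is uncertain. Its libraries held 2938, 1478 and 1400.2 normalized counts with FK866 + NR and 4438, 4955 and 5114 with Ex527, and the untreated libraries, which got no compound, ranged from 1996 to 3601. Ribosomal protein genes have many near-identical processed copies, and how reads shared with them were counted is not given in the sources used here. With FK866 + NR replicate 1 left out the log2 fold change was 1.75 (adjusted p = 0.00065), and with FK866 + NR replicate 2 left out it was 1.15 (adjusted p = 0.0407), against 1.32 (adjusted p = 0.0065) with all libraries.

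Some hypoxia genes fell, within a list of which most members did not pass the test. Of 35 HIF and glycolysis genes 34 were tested, 3 were called lower and 0 higher, 7 fell and 0 rose, and the median was -0.08. Over all genes tested 0.386% were called lower and 1.14% fell. For the 0 that rose, edgeR had 2 higher at an unadjusted p under 0.05 and DESeq2 had 1 at an adjusted p under 0.01. Bnip3, a mitophagy receptor, was at 1248, 1456 and 1513 normalized counts without and at 838, 847 and 847 with Ex527. All 3 Ex527 libraries lay close together and below every FK866 + NR library (1.67-fold lower, adjusted p = 0.000211). Pdk1, the kinase that holds back pyruvate dehydrogenase, was at 853, 863 and 867 without and at 478, 571 and 524 with Ex527 (1.64-fold lower, adjusted p = 0.000469). Adm, the vasodilator peptide adrenomedullin, was scarce at 29.0, 28.5 and 24.9 normalized counts and was at 6.74, 5.23 and 10.3 with Ex527 (3.7-fold lower, adjusted p = 0.00391), a call that was lost in 6 of 14 alternatives, without FK866 + NR replicate 1 among them (adjusted p = 0.0169).

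The prolyl hydroxylases fell by less. Egln1 went from a mean of 4061 ± 215 to 3088 ± 176 normalized counts (SD, n = 3, 1.31-fold lower, adjusted p = 0.00161) and Egln3 from 1208 ± 68.8 to 929 ± 29.98 (1.3-fold lower, adjusted p = 0.00408). Ndrg1, a stress and hypoxia gene, was at 869, 803 and 876 without and 576, 677 and 613 with Ex527 (adjusted p = 0.00977). Without FK866 + NR replicate 1 the adjusted p of Egln3 was 0.0128 and that of Ndrg1 0.0439. Neither gene passed with any 1 of the 6 libraries left out (adjusted p 0.0121 to 0.0276 for Egln3 and 0.0135 to 0.0486 for Ndrg1). The seventh gene that fell was Ldhb, a lactate dehydrogenase subunit (adjusted p = 0.00468). It passed in 1 of the 6 fits with 1 library left out (adjusted p 0.00229 to 0.0298). The other glycolytic enzymes of the list did not pass, among them Gapdh, a gene with many processed copies, with a log2 fold change of 0.44 (adjusted p = 0.0108). The count of 7 rested on all libraries: without FK866 + NR replicates 1, 2 and 3 in turn, 3, 3 and 2 members fell, and without FK866 + NR + Ex527 replicates 1, 2 and 3 in turn, 2, 4 and 4.

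The HIF core motif, ACGTG, is short, and 16.3% of all promoters held it in the 250 bases before the start. Of the 32 list members with a promoter 18 did (56.2%), and of the 6 of these that fell with Ex527, 3 did, namely Bnip3, Egln1 and Egln3. Those of Bnip3 (chr7:138909507-138909756, minus strand) and Egln1 (chr8:124949255-124949504, minus strand) are shown on GRCm38.p6 with every match on either strand in capitals, and in Bnip3 both strands match within 1 palindromic E-box, CACGTG, a sequence that other factors such as MYC and CLOCK also bind.
Bnip3 promoter: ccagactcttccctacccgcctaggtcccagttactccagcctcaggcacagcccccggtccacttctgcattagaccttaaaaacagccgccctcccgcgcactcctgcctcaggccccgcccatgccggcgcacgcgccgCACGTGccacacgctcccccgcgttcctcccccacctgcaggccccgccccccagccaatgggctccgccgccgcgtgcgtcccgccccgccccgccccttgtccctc
Egln1 promoter: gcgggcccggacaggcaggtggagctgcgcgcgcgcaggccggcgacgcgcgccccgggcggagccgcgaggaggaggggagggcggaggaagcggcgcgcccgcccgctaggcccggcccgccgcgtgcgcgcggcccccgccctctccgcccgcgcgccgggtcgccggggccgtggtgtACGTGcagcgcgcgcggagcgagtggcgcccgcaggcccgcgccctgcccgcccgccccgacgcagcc
The match lies 68 bases before the start in Egln1 and begins 108 bases before it in Bnip3. The list was made of known HIF targets and glycolytic genes, so its share of matches does not bear on Ex527 either.

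The most abundant gene among the falls was Angptl7, a secreted angiopoietin-like protein. It was at 28012, 29672 and 28807 normalized counts with FK866 + NR and at 13008, 15078 and 10876 with Ex527, 2.22-fold lower (log2 fold change -1.15 ± 0.09 SE, adjusted p = 2.12e-05). Selenop, the selenium carrier of plasma, fell 1.94-fold from 3253, 3147 and 3463 to 1523, 1834 and 1738 (adjusted p = 3.8e-05). Trib2, a pseudokinase related to Trib3, fell 1.84-fold from 589, 584 and 527.3 to 321, 306 and 295 (adjusted p = 5.88e-05). Trib2 and Trib3 moved in opposite directions.

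Further down in level, Alas2, the erythroid isoform of the first enzyme of heme synthesis, was at 180, 176 and 219 without and at 38.5, 80.7 and 33.8 with Ex527 (3.68-fold lower, adjusted p = 0.00142). Adam12, a metalloprotease, was at 138, 153 and 123 against 36.6, 69.5 and 42.2 (2.74-fold lower, adjusted p = 0.00312). C3, the central complement component, was at 184, 133 and 153 against 62.6, 86.6 and 64.7 (2.18-fold lower, adjusted p = 0.00413). C3 was past the threshold with all libraries but not without FK866 + NR replicate 1 (adjusted p = 0.0235). St8sia1, a sialyltransferase of ganglioside synthesis, fell 2.07-fold, Tspan32, a tetraspanin, 1.87-fold, Gabra3, a GABA receptor subunit, 1.84-fold, Pcdh18, a protocadherin, 1.83-fold, Smtnl2, a smoothelin-like protein, 1.81-fold and Cd200r3, a CD200 receptor, 1.78-fold. Without FK866 + NR replicate 1, Adam12, Gabra3, Pcdh18 and Cd200r3 had adjusted p of 0.0121, 0.0128, 0.0144 and 0.0133 with log2 fold changes of -1.45, -0.86, -0.78 and -0.88.

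In 3 of the 15 largest falls, picked after their values were seen, FK866 + NR replicate 1, the library that held neural transcripts, was the highest of its group by a wide margin. Nrgn, neurogranin, was at 378, 252 and 242 normalized counts with FK866 + NR and at 136, 166 and 130.4 with Ex527. The fall was 2-fold (adjusted p = 0.00321), and without that replicate the log2 fold change was -0.77 (adjusted p = 0.0142). Sez6l, a neuronal membrane protein, was at 309, 173 and 187 against 73.1, 116 and 94.7, with a log2 fold change of -1.22 that became -0.92 without the replicate (adjusted p = 0.0144). Aldoc, the brain isoform of aldolase, was at 819, 611 and 634 against 373, 396 and 312 and still fell without the replicate (log2 fold change -0.93 with it and -0.79 without, adjusted p = 0.000953). In all 3 genes the other FK866 + NR libraries also lay above every Ex527 library. Of the 10 neural and glial markers 4 were tested, with a median log2 fold change of -4.40, none passed an adjusted p under 0.01 (4 were lower at an unadjusted p under 0.05, and 0 by DESeq2 at an adjusted p under 0.01), and the median was -0.32 without FK866 + NR replicate 1.

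**Figure D4:**
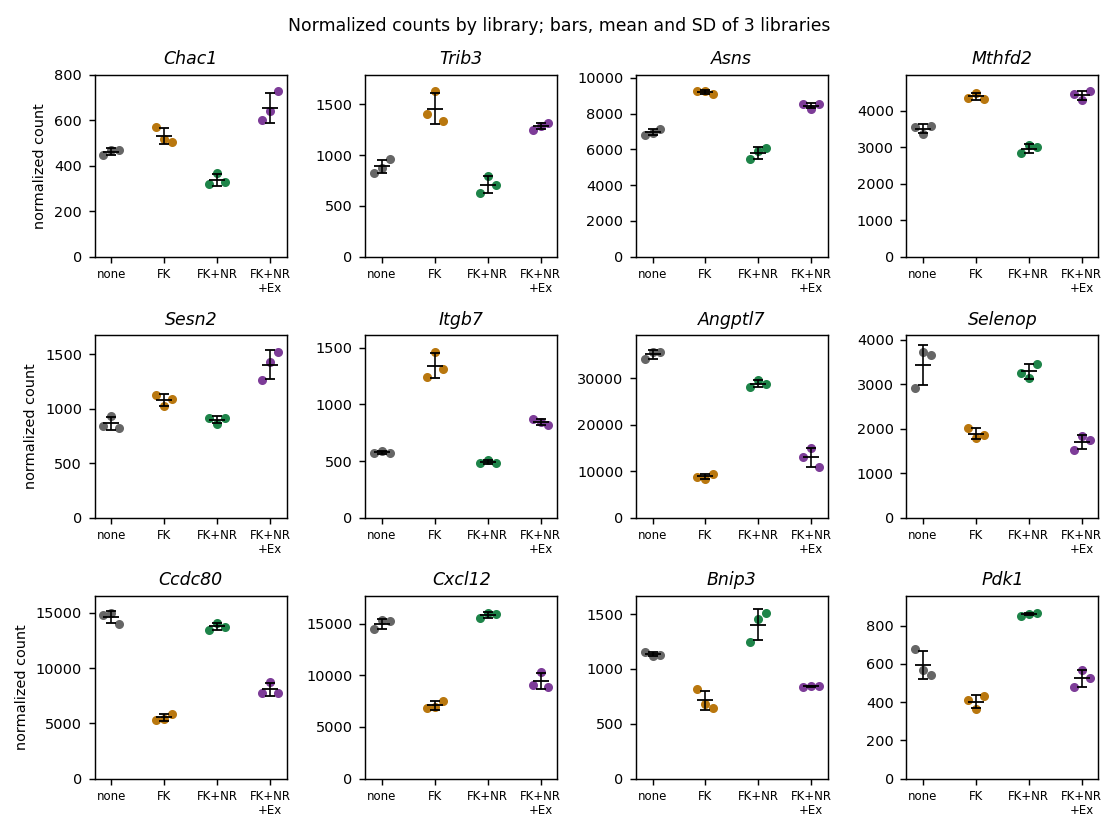
Normalized counts of 12 genes in the 12 HL-1 libraries, by group from untreated (none) to FK866 (FK), FK866 + NR and FK866 + NR + Ex527, with points for libraries and bars for the mean and SD of 3. In the FK866 + NR + Ex527 group the ATF4 targets and Itgb7 sit above, and Angptl7, Selenop, Ccdc80, Cxcl12, Bnip3 and Pdk1 below, the FK866 + NR group.

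The same genes can be followed into FK866 alone, since FK866 against untreated shares no library with the Ex527 comparison. Of the 57 genes called lower with Ex527, 40 (70.2%) were also called lower by FK866, against 369 genes or 2.5% of all tested, and 53 were lower in sign. Of the 31 called higher with Ex527, 9 (29%) were also called higher by FK866, against 309 genes or 2.09% of all tested, and 28 were higher in sign. None was called in opposite directions. Read the other way, the shared genes are 10.8% of the 369 that FK866 lowered and 2.91% of the 309 that it raised. The genes lowered by Ex527 had a median log2 fold change of -0.76 with Ex527 and of -0.84 with FK866, and those raised 0.65 and 0.38, where the median of all genes with FK866 was 0.02. The count of 40 was 26 without FK866 + NR replicate 1, 26 without FK866 + NR + Ex527 replicate 1 and 25 without FK866 + NR + Ex527 replicate 3.

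Angptl7 was at 34054, 35631 and 35584 normalized counts untreated and at 8785, 8408 and 9379 with FK866 (log2 fold change -1.99, adjusted p = 3.55e-09), so its Ex527 libraries lay between the FK866 libraries and those of either the untreated or the FK866 + NR cultures. Ccdc80, a secreted matrix protein, was at 14789, 14994 and 13996 untreated, 5330, 5386 and 5876 with FK866, 13484, 14103 and 13712 with FK866 + NR and 7757, 8733 and 7703 with Ex527. Cxcl12, a chemokine of stromal cells, had means of 15002 ± 489 untreated, 7087 ± 400 with FK866, 15826 ± 264 with FK866 + NR and 9404 ± 777 with Ex527 (SD, n = 3). In both genes the Ex527 libraries lay between those of FK866 and FK866 + NR. Itgb7 rose with FK866 (578 ± 11.3 to 1341 ± 111) and was at 491 ± 16.3 with FK866 + NR and 846 ± 25.1 with Ex527. Ccdc80 was picked from the calls after its values were seen.

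With FK866, 4 of the 28 ATF4 targets were called higher and 1 lower, against 2.09% and 2.5% of all genes tested. Their median log2 fold change was 0.31 with FK866, and the values varied from gene to gene. Trib3 rose with FK866 (889 ± 68.2 untreated, 1459 ± 152 with FK866, adjusted p = 6.49e-05), as did Asns (6945 ± 169 against 9194 ± 98.7, adjusted p = 7.34e-05). Chac1 was at 447, 470.1 and 470.5 untreated and at 569, 516 and 506 with FK866 (log2 fold change 0.20, adjusted p = 0.123), and Psph and Pck2 had log2 fold changes of 0.05 and -0.13 with adjusted p of 0.658 and 0.154. Adm had a log2 fold change of 0.09 with FK866 (adjusted p = 0.87) against -1.89 with Ex527, and C3 0.11 (adjusted p = 0.721) against -1.12. Whether the 2 effects differ in these genes was not tested.

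**Figure D5:**
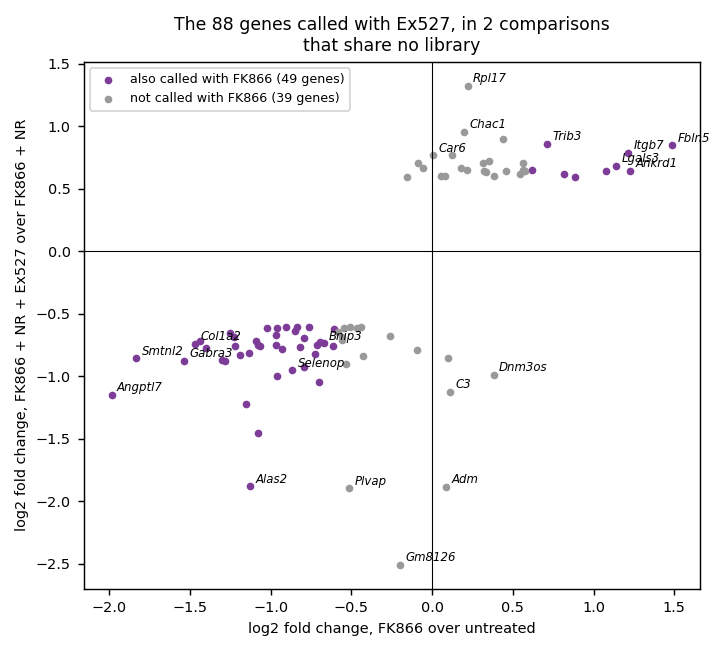
The 88 genes called with Ex527, with the log2 fold change of FK866 over untreated on the x axis and that of FK866 + NR + Ex527 over FK866 + NR on the y axis. Of the 88, 49 (purple) were also called with FK866, all in the same direction, and Adm and C3 are among the 39 (grey) that were not.

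At the mRNA level none of the 7 sirtuin genes, Sirt1 as the target of Ex527 among them, passed (edgeR, 1 higher and 0 lower at an unadjusted p under 0.05, and 0 by DESeq2 at an adjusted p under 0.01). Sirt1 was at 736, 723 and 712 normalized counts without and at 736, 618 and 789 with Ex527, a log2 fold change of -0.02 with a 95% interval from -0.23 to 0.19. The others had log2 fold changes of 0.19 (Sirt2, adjusted p = 0.0687), -0.12 (Sirt3), 0.03 (Sirt4), -0.09 (Sirt5), -0.05 (Sirt6) and 0.09 (Sirt7). Sirt1 rose with FK866 against untreated (0.70, adjusted p = 0.000119). Of 19 protein acetyltransferases and deacetylases tested, Kat2a, the acetyltransferase GCN5, rose (log2 fold change 0.30, adjusted p = 0.00758), which did not hold when any 1 of the 6 libraries was left out (adjusted p 0.0157 to 0.0468), and none fell (0 lower at an unadjusted p under 0.05 by edgeR and 0 by DESeq2 at an adjusted p under 0.01). Among all genes tested 1.07% rose.

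Of 21 genes of NAD synthesis and use that were tested, 1 fell and 0 rose (edgeR, 1 higher at an unadjusted p under 0.05, DESeq2 1 higher at an adjusted p under 0.01). The gene that fell was Cd38, an NAD-consuming glycohydrolase, at 7016, 6957 and 7320.0 normalized counts without and 5417, 5588 and 5718 with Ex527 (1.27-fold lower, adjusted p = 0.00135, and up to 0.0116 when 1 of the 6 libraries was left out). Nampt, the target of FK866, had a log2 fold change of -0.26 (adjusted p = 0.0182) and Nadk, NAD kinase, of 0.22 (adjusted p = 0.0215). Beside the 1 fall in this list, 1.14% of all genes tested fell and 1.07% rose.

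No core clock gene passed among the 18 tested of 21 (edgeR, 3 higher and 3 lower at an unadjusted p under 0.05, DESeq2 1 lower at an adjusted p under 0.01). The unadjusted level was passed by 3430 of all 14760 genes tested, both directions together. Per2, a repressor of the clock loop, was at 944, 931 and 880.3 without and at 933, 1090.4 and 920.1 with Ex527, a log2 fold change of 0.10 with a 95% interval from -0.11 to 0.30. Among the activators Arntl had a log2 fold change of 0.25 (adjusted p = 0.0633) and Clock of 0.00. Among the repressors the values were 0.27 for Per1, -0.39 for Per3, -0.01 for Cry1, 0.35 for Cry2 (adjusted p = 0.052), 0.09 for Nr1d1 and 0.05 for Nr1d2. Of the other loop and output genes Dbp was at -0.20, Tef at 0.02, Hlf at -0.30, Nfil3 at 0.16, Bhlhe40 at -0.18, Bhlhe41 at -0.42 and Ciart at 0.17. Rora, an activating nuclear receptor, had a log2 fold change of -1.05 (adjusted p = 0.0489), which was -0.63 (adjusted p = 0.24) without FK866 + NR replicate 1. Npas2, Arntl2 and Rorb were too low to test.

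Mitochondrially encoded mRNAs took 2.58%, 2.44% and 2.03% of the counts with FK866 + NR and 2.02%, 2.08% and 1.14% with Ex527. The means, 2.35% ± 0.284 and 1.75% ± 0.528 (SD, n = 3), differed by -0.603 percentage points, and the exact two-sided permutation test gave p = 0.2, where 3 against 3 cannot go below 0.1. Without FK866 + NR + Ex527 replicate 3, the library with the lowest share, the difference was -0.299. None of the 13 mRNAs passed (edgeR, 0 higher and 9 lower at an unadjusted p under 0.05, DESeq2 0 at an adjusted p under 0.01), and their median log2 fold change was -0.44. The unadjusted level was passed by 3430 of all 14760 genes tested, both directions together. In the fit with no filter on low counts, which called 440 of 28150 genes lower, 9 of the 13 mRNAs passed, all lower, and 1 was called. Those of complex I were at -0.32 (mt-Nd1), -0.37 (mt-Nd2), 0.13 (mt-Nd3), -0.52 (mt-Nd4), -0.83 (mt-Nd4l, adjusted p = 0.0389), -0.44 (mt-Nd5) and -0.45 (mt-Nd6). The others were at -0.47 (mt-Cytb), -0.45 (mt-Co1), 0.09 (mt-Co2), 0.04 (mt-Co3), -0.45 (mt-Atp6) and 0.28 (mt-Atp8). Of 76 nuclear genes for respiratory chain and ATP synthase subunits tested, 69 were positive in sign with a median of 0.14 and none passed (edgeR, 28 higher and 0 lower at an unadjusted p under 0.05, DESeq2 3 higher at an adjusted p under 0.01). With no filter on low counts 6 passed, all higher, and in a fit of only the 6 libraries compared 8. These 2 fits called 48 of 28150 and 38 of 14367 genes higher.

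A list of 50 cytosolic ribosomal protein genes, which leaves out Rpl17, called higher above, was positive in 49 with a median log2 fold change of 0.25. None of the 50 passed (edgeR, 31 higher and 0 lower at an unadjusted p under 0.05, DESeq2 4 higher at an adjusted p under 0.01). The unadjusted level was passed by 3430 of all 14760 genes tested, both directions together. With no filter on low counts, where 48 of 28150 genes were called higher, 18 of the 50 passed. In a fit of only the 6 libraries compared, where 38 of 14367 genes were called higher, 22 of the 50 passed. All of these were higher. Together the 50 genes took 2.03%, 2.19% and 2.15% of the counts with FK866 + NR and 2.55%, 2.41% and 2.51% with Ex527, while the untreated libraries spanned 2.51% to 2.94%.

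Collagens and other matrix genes went both ways. Of 56 tested, 2 rose and 6 fell, against 1.07% and 1.14% of all genes tested. Without FK866 + NR replicates 1, 2 and 3 in turn 2, 2 and 3 fell, and without FK866 + NR + Ex527 replicates 1, 2 and 3 in turn 2, 3 and 3. In a fit of only the 6 libraries compared, which called 69 of 14367 genes lower, 10 fell. Col1a1 and Col1a2, which encode the 2 chains of type I collagen, went in opposite directions: Col1a1 rose 1.24-fold (15914, 15154 and 15510.0 against 19781, 19909 and 17918 normalized counts, adjusted p = 0.00722) and Col1a2 fell 1.67-fold (701, 796 and 724 against 483, 501 and 339.5, adjusted p = 0.00155). At the level of FPKM Col1a1 had a mean of 89.2 and Col1a2 of 2.25 with FK866 + NR. Col3a1, of type III collagen, fell 1.2-fold (adjusted p = 0.00614) and Col6a2, of type VI collagen, 1.43-fold (adjusted p = 0.000745). Of the 10 fibroblast markers 7 were tested, 4 fell (Col1a2, Col3a1, Pdgfra and Dcn) and 1 rose (Col1a1), and the lists share the collagens. Without FK866 + NR replicate 1 the adjusted p of Col1a1 and Col3a1 were 0.0235 and 0.0241, and 2 of the fibroblast markers fell and 0 rose. Whether fewer cells of a kind or less RNA per cell lay behind such a change cannot be told apart in bulk RNA. The smooth muscle marker Acta2, an actin, fell 1.53-fold (adjusted p = 0.00291), the only one of 6 tested markers of that list to pass (adjusted p = 0.0181 without FK866 + NR replicate 1). The macrophage markers, of which 3 of 10 were tested, had none that passed (edgeR, 0 at an unadjusted p under 0.05, DESeq2 0 at an adjusted p under 0.01).

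Wnt2 and Wnt9a, secreted ligands of the Wnt pathway, fell 1.76-fold (adjusted p = 2.57e-05) and 1.53-fold (adjusted p = 0.000266), and Wnt2 was picked from the calls after its value was seen. Of 45 tested genes of MAPK and growth factor signaling, the list that holds Wnt9a, 1 rose and 5 fell, the other falls being Wnt5a and Wnt11, 2 further ligands (log2 fold changes -0.55 and -0.41), Igfbp3, a binding protein of insulin-like growth factors (-0.35), and Pdgfra, a receptor for platelet-derived growth factor (-0.55). The gene that rose was Pdgfb, a platelet-derived growth factor chain, at 102, 123 and 111 normalized counts without and 192, 173 and 149 with Ex527 (adjusted p = 0.00992). Leaving out any 1 of the 6 libraries left 2 falls, Wnt5a and Wnt9a, and 0 rises (adjusted p of Pdgfb from 0.01003 to 0.0581). Of 28 tested TGF-beta and YAP genes 3 rose and 2 fell. Beside this list and the MAPK list, 1.07% of all genes tested rose and 1.14% fell. Tgfb2 and Tgfb3, which encode TGF-beta ligands, fell (log2 fold changes -0.43 and -0.39, adjusted p = 0.000203 and 0.00121), and Ltbp1, which holds latent TGF-beta in the matrix, rose (0.56, adjusted p = 0.000469), as did the YAP targets Cyr61 (0.46, adjusted p = 0.00596, and 0.0391 without FK866 + NR replicate 1) and Ankrd1.

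The p53, FOXO and NF-kB lists cover factors that SIRT1 is known to deacetylate. Of 17 FOXO genes tested 4 fell and 0 rose (edgeR, 3 higher at an unadjusted p under 0.05, DESeq2 0 at an adjusted p under 0.01), against 1.14% of all genes tested that fell, namely Bnip3, Ccng2, a cyclin, at a log2 fold change of -0.58 (adjusted p = 0.000783), Txnip, a thioredoxin-binding protein, at -0.32 (adjusted p = 0.00583), and Bcl2l11, the death factor BIM, at -0.28 (adjusted p = 0.00919). Leaving out FK866 + NR + Ex527 replicate 3 left 4 that fell and leaving out any other of the 6 libraries left 2, Txnip and Bcl2l11 having adjusted p of 0.0226 and 0.026 without FK866 + NR replicate 1. Of 22 p53 targets, Sesn2 rose and Sesn1, its paralog, and Trp53inp1, of autophagy and cell death, fell (log2 fold changes -0.53 and -0.48, adjusted p = 0.000625 and 0.00177, the latter 0.0112 without FK866 + NR replicate 1). Of 18 NF-kB targets and cytokines tested Nfkb2, an NF-kB subunit, rose (log2 fold change 0.36, adjusted p = 0.00429, and 0.0235 without FK866 + NR replicate 1) and Cxcl12 fell. Beside the p53 and NF-kB lists, 1.07% of all genes tested rose and 1.14% fell.

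Other stress programs were read from lists of their own. Of 25 ER chaperone and unfolded protein response genes none passed (edgeR, 3 higher and 0 lower at an unadjusted p under 0.05, DESeq2 0 at an adjusted p under 0.01), and the median was 0.03. Of 25 heat shock genes 2 rose, Hspd1, a mitochondrial chaperonin (log2 fold change 0.25, adjusted p = 0.00992, and 0.0635 without FK866 + NR replicate 1), and Cryab, a small heat shock protein, which was called at 532, 522 and 575 against 820.0, 865 and 871 normalized counts (adjusted p = 0.000469). Of 27 NRF2 genes Nqo1, a quinone reductase, rose (log2 fold change 0.29, adjusted p = 0.00856), though not when any 1 of the 6 libraries was left out (adjusted p 0.0211 to 0.0535), and the median was 0.14. Of 27 tested immediate early genes 4 rose, namely Klf4 (log2 fold change 0.58, adjusted p = 0.00103), Junb (0.50, adjusted p = 0.00111), Myc (0.48, adjusted p = 0.00244) and Ier2 (0.45, adjusted p = 0.00971), all transcription factors or early-response nuclear proteins. In the 6 fits with 1 library left out, Klf4 passed each time, Junb in 4, Myc in 2 and Ier2 in none (adjusted p 0.018 to 0.0454). Without FK866 + NR replicates 1, 2 and 3 in turn 2, 1 and 3 of the list rose, and without any 1 of the FK866 + NR + Ex527 replicates 2 did. Over all genes tested 1.07% rose. For the 0 that fell in these 3 lists, edgeR had 1 heat shock gene, 0 NRF2 genes and 2 immediate early genes lower at an unadjusted p under 0.05, and DESeq2 had 0 at an adjusted p under 0.01. Ankrd1, a YAP target and cardiac stress gene, was at 1779, 1986 and 1932 against 2837, 2658 and 3414 and was called higher (adjusted p = 0.000627). Of 55 cell cycle and 42 autophagy and lysosome genes none passed (edgeR, 10 and 9 higher and 4 and 1 lower at an unadjusted p under 0.05, DESeq2 1 and 2 higher at an adjusted p under 0.01).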

How the data were processed

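Poly(A) RNA of HL-1 wells was sequenced on an Illumina NovaSeq. The authors deposited unnormalized read counts for each gene and their FPKM, which equal counts divided by gene length and library total to within a ratio of 0.968 to 1.014 and served only for levels between genes. The submitters' processing notes name HISAT2, HISAT and TopHat2, with no version or role, and the build mm10. The counter and its use of strand are not given in the sources used here, so overlapping antisense genes cannot be told apart.

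The counts were tested with edgeR 4.0.16 (limma 3.58.1, R 4.3.3): filterByExpr, which kept 14760 of 54532 genes, TMM, all 12 HL-1 libraries with 1 mean per group and no block, and the two-sided quasi-likelihood F-test of FK866 + NR + Ex527 minus FK866 + NR with Benjamini-Hochberg adjustment over all genes tested. Calls needed an adjusted p below 0.01 with a log2 fold change beyond 0.585 in size (1.5-fold), the thresholds of the study's methods. Normalized counts are TMM-scaled counts at the mean library size, and intervals are 95% on the fit's degrees of freedom. The fits were tested on simulated data. Named genes were the 15 largest rises and 15 largest falls among called protein-coding genes with a mean normalized count of at least 50 in the 6 libraries and groups that did not overlap, called members and up to 4 others of each gene list, and all sirtuin, clock and mitochondrial mRNAs, except 1 clock gene that is not reported here. Of 2 Ensembl IDs with 1 symbol the one with more counts was taken. The members and lists were chosen with earlier results of these data known. The share of mitochondrial mRNA was compared by an exact two-sided permutation test. Other settings tried were DESeq2 1.42.0 (Wald test), its size factors, other filters and call rules, fits of fewer libraries and a replicate block. Promoter sequences are from RefSeq (GRCm38.p6). The heart tables were not used here. Depth ran from 21337922 to 35000109 counts per library, and p-values cover the spread between 3 wells of 1 line.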

Additional observations from a re-analysis of the deposited data

How the results depend on the processing

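The threshold set the number of genes more than the normalization did. DESeq2's size factors, the fit without mitochondrially encoded genes, the filter on an average count over 5 and the fit of only the 6 libraries compared gave 87, 90, 86 and 107 genes called with Ex527, against 88. The Wald test of DESeq2 gave 133 (93 lower), with all 88 among them. With no filter on low counts 488 were called (48 higher, 440 lower), and with no filter and without FK866 + NR replicate 1, chosen after seeing the data, 148 (49 higher, 99 lower). At an adjusted p under 0.01 with no minimum fold 326 genes passed (158 higher, 168 lower), at 0.05 1058 (569 higher, 489 lower), and glmTreat called 1 (0 higher, 1 lower). Leaving out 1 library of the comparison gave 51 to 82 genes (16 to 27 higher, 33 to 55 lower), and leaving out FK866 + NR replicate 1 and FK866 + NR + Ex527 replicate 3 together, also chosen later, gave 32 (8 higher, 24 lower). The genes called with FK866 numbered 678 and ranged from 537 to 778 when 1 library was left out, with 2047 at an adjusted p under 0.01 and 3661 at 0.05 with no minimum fold, and 190 by glmTreat. The difference in mitochondrial share ranged from -0.77 to -0.299 when 1 library was left out and was -0.42 on the log2 scale of normalized counts. Why the counts moved with these settings, the smaller number of libraries in some fits included, was not tested.

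No pairing of the wells by replicate number was seen: deviations from the group means of same-numbered FK866 + NR and FK866 + NR + Ex527 libraries correlated at 0.0149, -0.0326 and 0.112, and 1 of 3 correlated best with its own number. With 3 libraries per group this check could not exclude a pairing. The replicate block gave 74 genes called with Ex527 in 12 libraries (25 higher, 49 lower) and 108 in 6 (35 higher, 73 lower), and for FK866 638 and 180. In 6 libraries with the block 7 mitochondrially encoded mRNAs passed an adjusted p under 0.01, all lower, and 1 was called. All 30 genes named by size kept their direction in every alternative, and between 18 (without FK866 + NR replicate 1, FK866 + NR + Ex527 replicate 1 or replicate 3) and 30 of them kept an adjusted p under 0.01. Genes with under about 50 normalized counts, such as Adm, Plvap and Gm8126, were called on few reads.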

Other observations

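Several lists held genes that reached neither limit. None of 26 interferon response genes passed (edgeR, 5 higher and 2 lower at an unadjusted p under 0.05, DESeq2 1 higher at an adjusted p under 0.01). The unadjusted level was passed by 3430 of all 14760 genes tested, both directions together. The median log2 fold change of the list was 0.09 with Ex527 and 0.34 with FK866 against untreated, where that of all genes was 0.02. With FK866 8 of the list were called higher, against 309 genes or 2.09% of all tested. Of 36 tested genes of cholesterol and fatty acid synthesis Hmgcs1, of the mevalonate pathway, fell (log2 fold change -0.33, adjusted p = 0.00312, and 0.0128 without FK866 + NR replicate 1), and of 24 of fatty acid oxidation Acot2, a mitochondrial thioesterase, rose (0.43, adjusted p = 0.00612, and 0.0142 without it). None of 19 mitochondrial biogenesis regulators and none of 27 beta-adrenergic and cAMP genes passed (edgeR, 5 and 2 higher and 1 and 3 lower at an unadjusted p under 0.05, DESeq2 1 and 1 higher at an adjusted p under 0.01). Of 7 tested aryl hydrocarbon receptor targets Nqo1 rose. Of 24 matrix proteases and inhibitors, Loxl4, a lysyl oxidase, rose (log2 fold change 0.48, adjusted p = 0.00571, and 0.0221 without FK866 + NR replicate 1), and Loxl3, of the same family, and Plat, tissue plasminogen activator, fell (-0.43 and -0.42, adjusted p = 0.00117 and 0.00162). Beside the lists of this paragraph, 1.07% of all genes tested rose and 1.14% fell.

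The sarcomere and Z-disc list had 22 of 51 genes tested, the calcium handling and ion channel list 25 of 60, and the list of cardiac stress and transcription factors 14 of 26, in which Acta2 fell, Atp1b1, a subunit of the sodium pump, fell (log2 fold change -0.37, adjusted p = 0.00639, and 0.0413 without FK866 + NR replicate 1) and Ankrd1 rose, respectively. Of the 3 called genes that were scarcest, all lower and named after their values were seen, Plvap, a protein of endothelial fenestrae, was at 31.5, 35.3 and 41.5 normalized counts without and 15.4, 8.22 and 5.63 with Ex527, Gm8126 was at 16.9, 31.9 and 17.5 against 4.81, 3.73 and 2.81, and the third is Adm. Without FK866 + NR replicate 1 the adjusted p of Plvap and Gm8126 were 0.0158 and 0.0196. Of 10 endothelial markers 3 were tested and Flt1, a VEGF receptor, fell (log2 fold change -0.42, adjusted p = 0.00612, and 0.0326 without FK866 + NR replicate 1). Beside these lists too, 1.07% of all genes tested rose and 1.14% fell.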
